A study of Mus musculus with 28 samples.

Results

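The 39 protein-coding Hox genes of the mouse are described here in stromal and luminal cells of the mammary gland. They were chosen by symbol alone (Hoxa, Hoxb, Hoxc or Hoxd followed by a number) from the 50600 genes in the counts, and transcripts antisense to the clusters or named after a host gene were left out. The set holds 11 Hoxa genes on chromosome 6, 10 Hoxb genes on chromosome 11, 9 Hoxc genes on chromosome 15 and 9 Hoxd genes on chromosome 2. Cells came from 7 adult PdgfrαCre R26mTmG females on a C57BL/6 background, of which 4 were untreated and 3 carried slow-release pellets of estrogen and progesterone (E+P). All groups share the reporter: a cell that expressed Cre under Pdgfrα control at any time, and all its progeny, turned from tdTomato to GFP, so the colour records history and not present Pdgfrα expression. Each mouse gave GFP+ and tdTomato+ stroma (sorted as CD49f− EpCAM−) and GFP+ and tdTomato+ luminal cells (CD49f low, EpCAM+), after blood and endothelial cells had been gated out, which makes 28 libraries in 8 groups.

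Hox genes encode transcription factors with a shared DNA-binding homeodomain. They lie in 4 clusters, in which genes with low paralogue numbers are expressed towards the head and those with high numbers towards the tail, and fibroblasts keep such a pattern into adult life as a record of where in the body they formed. Genes with the same number in different clusters are paralogues, which arose by duplication of one ancestral cluster. In the mammary gland, Hox genes are known for the placing of the mammary line, for growth of the gland and for its response to hormones.

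Paralogues of the same number went different ways in these cells, and the homeobox of Hoxc10 and Hoxd10 is shown to let such a pair be compared. The sequences are the 180 coding bases of the homeobox from GENCODE M21 transcripts on GRCm38, in the last exon. Capitals mark bases of Hoxd10 (chr2:74694141-74694320) that differ from Hoxc10 (chr15:102970848-102971027), both on the plus strand.
Hoxc10: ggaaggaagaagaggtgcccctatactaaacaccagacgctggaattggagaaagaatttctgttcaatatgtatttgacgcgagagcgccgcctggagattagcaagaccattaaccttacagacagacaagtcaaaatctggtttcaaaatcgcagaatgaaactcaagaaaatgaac
Hoxd10: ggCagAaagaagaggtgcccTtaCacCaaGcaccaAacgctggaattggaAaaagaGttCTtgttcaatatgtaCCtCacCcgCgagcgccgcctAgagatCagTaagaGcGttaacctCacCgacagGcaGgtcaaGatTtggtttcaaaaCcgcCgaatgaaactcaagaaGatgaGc
The 2 sequences were identical at 82.8% of the bases, with a longest identical run of 16 bases against a read length of 75 bases. No window of 75 bases in a transcript of Hoxa4, Hoxb4, Hoxc4, Hoxc9 or Hoxd9 occurred on the same strand in a transcript of another gene. Such windows made up 59.0% of Hoxd3, 43.9% of Hoxd4, 11.5% of Hoxa2, 9.44% of Hoxd11, 6.87% of Hoxa3, 5.12% of Hoxc10, 3.12% of Hoxc5 and 1.78% of Hoxd10, whose counts are uncertain to that extent. Windows shared with the opposite strand, 11.9% for Hoxa4, are given with those of Hoxb2 and Hoxb3 below.

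Libraries held between 8623383 and 24583803 counts, and levels are given in CPM, the count scaled to a fixed library size with TMM factors. Hox genes are read here from few counts, and intervals and floors cover counting error only. Markers of the labelled cells were present, and those of other cells too. Summed fibroblast markers were between 31860 and 61330 CPM in GFP+ stroma and between 1797 and 6545 CPM in tdTomato+ stroma. tdTomato+ stroma held markers of skeletal muscle fibres at 2332 to 20580 CPM, of pericytes and smooth muscle at 5392 to 8710 CPM and of satellite cells at 186.4 to 310.3 CPM, so it is a mixture of cell types. The same 3 lists reached at most 16.1, 115.5 and 0.974 CPM in GFP+ stroma. In bulk libraries such as these, fewer cells of a type and less RNA per cell cannot be told apart.

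Stromal cells expressed genes of all 4 clusters, and luminal cells little beyond Hoxb2, Hoxb3 and Hoxb4. With a mean of at least 1 CPM counted as expressed, 19 of the 39 members were expressed in GFP+ stroma, 23 in tdTomato+ stroma and 3 in either luminal subset. The summed level of the 39 genes was 141 ± 20.3 CPM (SD, n = 7 mice) in GFP+ stroma and 166.1 ± 16.8 CPM in tdTomato+ stroma, against 13.8 ± 2.95 CPM in GFP+ and 21.4 ± 8.57 CPM in tdTomato+ luminal cells. Hoxb genes made up 97.2% ± 2.04 (SD, n = 14) of the luminal sum. In stroma they made up 18.6% ± 3.39.

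**Figure D1:**
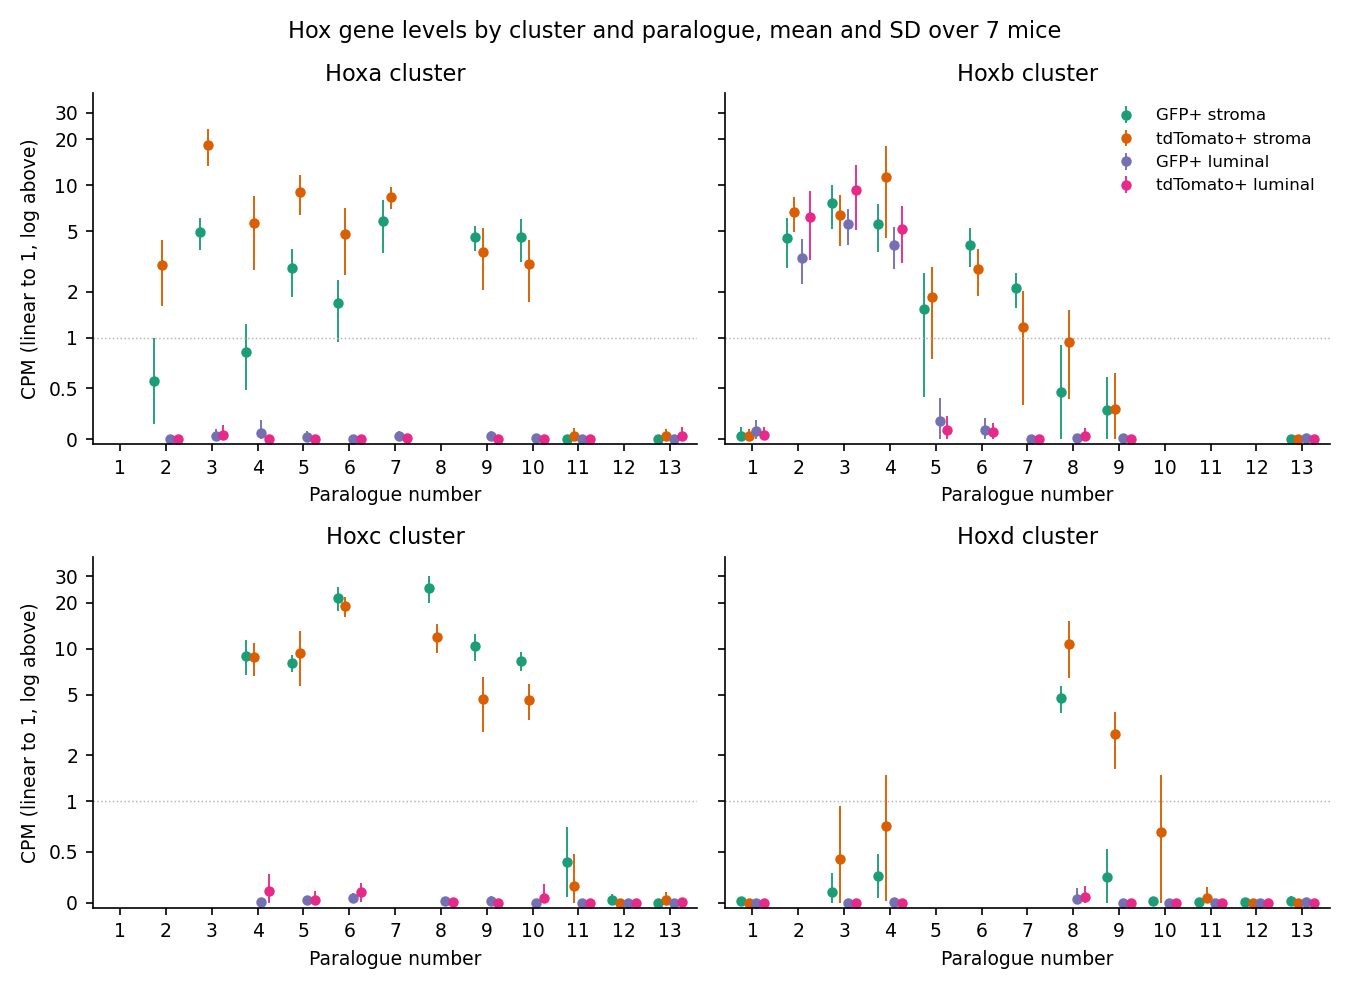
Levels of Hox genes in CPM (points are means over 7 mice, bars are SD, the axis is linear up to 1 CPM and logarithmic above) against the paralogue number, in 1 panel per cluster, with a dotted line at 1 CPM. Luminal cells stand above the line at Hoxb2, Hoxb3 and Hoxb4 only, and members 11 to 13 of every cluster stay under it in all 4 cell populations.

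Levels also followed the paralogue number. Of the 12 members with numbers 1 to 4, 5 were expressed in GFP+ stroma and 8 in tdTomato+ stroma. Of the 11 members with numbers 5 to 8, which pattern the trunk, 10 were expressed in both. Of the 7 members numbered 9 or 10, 4 were expressed in GFP+ and 5 in tdTomato+ stroma. None of the 9 members numbered 11 to 13, which pattern the hind end and the distal limb, reached 1 CPM in any population. These 9 together gave 81 counts over the 14 stromal libraries and 7 over the 14 luminal ones, and 61 of the stromal counts were of Hoxc11.

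A total of 27 members passed the low-count filter of the fits with stromal libraries and 3 that of the luminal fit. The other 12 were Hoxa11, Hoxa13, Hoxb1, Hoxb9, Hoxb13, Hoxc12, Hoxc13, Hoxd1, Hoxd3, Hoxd11, Hoxd12 and Hoxd13. Hoxb9 had the most counts among them, 55 in stroma, with up to 1.01 CPM in a library, and Hoxd3 had 47, with up to 1.17 CPM. The remaining 10 reached at most 0.286 CPM in any library. The filter keeps a gene that is present in 1 group, so the counts of members called below are given beside the share over all genes tested and not as a property of all 39.

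The comparison of stroma with luminal cells asks which Hox genes separate the mesenchyme from the epithelium it surrounds. Of the 27 members tested, 24 were higher in stroma and 0 were lower at an adjusted p under 0.01 (edgeR's quasi-likelihood test, Benjamini-Hochberg over all genes). Over all 19569 genes tested, 33.0% were higher, 30.5% were lower and 63.5% differed. The median log2 fold change of the 27 was 7.65, or 7.22 with the 6 members that had no luminal count set to their lower bound, against 0.02 over all genes. Stromal libraries lay above all luminal libraries for 17 of the 27, and the background for such a separation, in either direction, was 14.4%. Only 3 of the 27 passed the filter in luminal libraries alone, so most were tested through their stromal level. The median and the separation follow partly from that filter and were not tested apart from it. Markers of fibroblasts, between 7.45 and 110.5 CPM in the luminal libraries, were far under their stromal level.

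Hoxc8, known to act in the placing of the mammary placodes, had the largest difference among members with luminal counts. It was counted at 19.6, 30.7, 20.7 and 19.4 CPM in untreated GFP+ stroma and at 28.4, 30.5 and 26.7 CPM with E+P. In tdTomato+ stroma it stood at 12.6, 11.6, 9.49 and 17.2 CPM without and at 9.54, 11.4 and 11.99 CPM with E+P. In luminal libraries its highest value was 0.0855 CPM, from 4 counts in all 14. Every stromal library was therefore above every luminal one, with a log2 fold change of 9.66 (SE 0.28, adjusted p = 1.67e-18, edgeR).

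Hoxc6, whose product patterns the thoracic trunk, was the member with the highest level per length in both stromal subsets, at 8.90 CPM per kb in GFP+ stroma, next to 8.88 CPM per kb for Hoxc8, and at 7.88 CPM per kb in tdTomato+ stroma. In GFP+ stroma it was at 18.7, 22.1, 14.5 and 25.2 CPM without and 21.6, 25.5 and 22.3 CPM with E+P. In tdTomato+ stroma it was at 17.5, 22.6, 14.2 and 21.5 CPM without and 21.1, 17.7 and 18.2 CPM with E+P. The 2 subsets overlap, and the log2 fold change between the subsets of 0.17 (SE 0.15) did not pass the threshold (adjusted p = 0.363, edgeR). Against luminal cells the log2 fold change was 8.29 (SE 0.29, adjusted p = 9.63e-19, edgeR). Hoxc5, its neighbour in the cluster, was at 8.48, 6.35, 7.31 and 8.80 CPM in GFP+ stroma without and 7.47, 8.82 and 9.40 CPM with E+P. In tdTomato+ stroma it was at 9.12, 7.31, 7.37 and 10.3 CPM without and 6.48, 7.86 and 17.1 CPM with E+P. Hoxc5 was higher in stroma than in luminal cells by 8.86 on the log2 scale (SE 0.40, adjusted p = 9.62e-15, edgeR).

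Several members had no count at all in the 14 luminal libraries. Against a floor of 3 counts over that group, Hoxa6 was at least 260.7-fold higher in stroma, Hoxa2 at least 148.6-fold, Hoxb7 at least 133.3-fold and Hoxd9 at least 126.6-fold. The bounds were 33.03-fold for Hoxd10, 24.0-fold for Hoxc11 and 18.5-fold for Hoxd3, which rest on fewer stromal counts. The tested members not called were Hoxb2, Hoxb3 and Hoxd10. For Hoxd10, with no luminal count, the fit gave a log2 fold change of 3.80 with an SE of 16340, so the test could not call it. The smallest differences were those of the neighbours Hoxb2, Hoxb3 and Hoxb4. These act in the hindbrain and neck region and, in the case of Hoxb4, in blood stem cells. Hoxb3 differed by 0.06 (SE 0.18, adjusted p = 0.804, edgeR) and Hoxb2 by 0.41 (SE 0.14, adjusted p = 0.0107, edgeR) on the log2 scale. Hoxb4 was higher in stroma by 0.79 (SE 0.19, adjusted p = 0.000734, edgeR), in 7 of 7 mice. With scaling by library size only, the Hoxb4 difference was 0.50 and did not pass (adjusted p = 0.0227).

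The comparison of GFP+ with tdTomato+ stroma sets the mesenchymal cells with a Pdgfrα history against the remaining stromal cells of the same mice. Members of the Hoxa cluster with low numbers, and Hoxd8 to Hoxd10, were lower in GFP+ stroma, while Hoxc8, Hoxc9 and Hoxc10 were higher. In numbers, 3 of the 27 members tested were higher and 9 lower in GFP+ stroma. The share called, 44.4%, was close to the 42.0% of all 17783 genes that were called between these very different populations, so the number by itself is no property of Hox genes. In single directions, 20.6% of all genes were higher and 21.3% lower. The groups did not overlap for 3 members higher and 4 lower in GFP+ stroma, beside 26.5% of all genes in either direction.

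**Figure D2:**
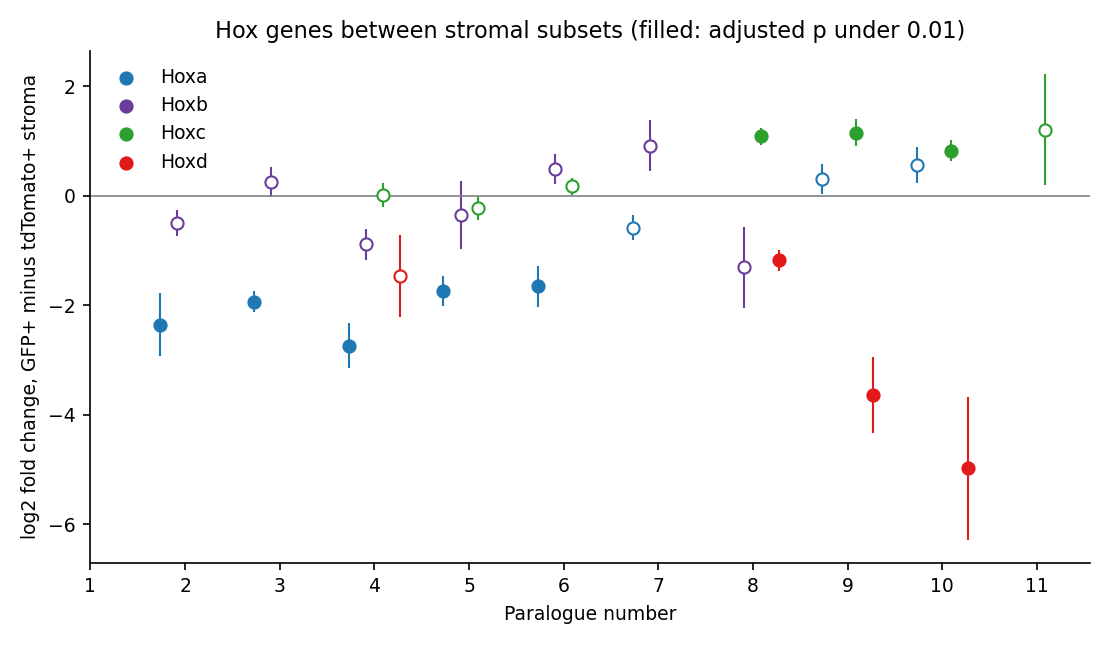
Log2 fold changes of tested Hox genes between GFP+ and tdTomato+ stroma (points, with SE as bars) against the paralogue number, coloured by cluster and filled where the adjusted p was under 0.01. Hoxa2 to Hoxa6 lie between -2.74 and -1.66, Hoxc8 to Hoxc10 between 0.82 and 1.15, and no Hoxb gene is filled.

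Within the Hoxa cluster Hoxa2 to Hoxa6 all passed, and Hoxa7, Hoxa9 and Hoxa10 did not. Hoxa2, the selector of the second branchial arch, was lower in GFP+ stroma by -2.35 (SE 0.58, adjusted p = 0.00234, edgeR). Its call was lost without untreated replicate 3 (0.0136), E+P replicate 1 (0.0153) or E+P replicate 3 (0.0101). Hoxa3, needed for the thymus, was at 4.96 ± 1.18 CPM in GFP+ and 18.4 ± 4.97 CPM in tdTomato+ stroma (SD, n = 7), and the groups did not overlap. Hoxa7 gave -0.59 (SE 0.23, adjusted p = 0.0402, edgeR), Hoxa9 0.30 (SE 0.28) and Hoxa10 0.56 (SE 0.33), so the values went from negative to positive along the cluster.

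Hoxa4 showed the largest Hoxa difference. In untreated GFP+ stroma it stood at 1.44, 0.542, 0.792 and 0.825 CPM and with E+P at 0.406, 1.27 and 0.738 CPM. In tdTomato+ stroma it stood at 1.90, 6.68, 2.92 and 9.71 CPM without and at 4.54, 5.29 and 8.63 CPM with E+P. All tdTomato+ libraries were above all GFP+ libraries, although tdTomato+ libraries differed among themselves by several fold. The log2 fold change was -2.74 (SE 0.41, adjusted p = 2.3e-05, edgeR), lower in GFP+ stroma in 7 of 7 mice.

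Its paralogue Hoxc4 was at 9.03 ± 2.35 CPM in GFP+ and 8.78 ± 2.11 CPM in tdTomato+ stroma (SD, n = 7), a log2 fold change of 0.01 (SE 0.21, adjusted p = 0.965, edgeR). Hoxb4 gave -0.89 (SE 0.28, adjusted p = 0.013, edgeR), lower in GFP+ stroma in 7 of 7 mice. Its tdTomato+ libraries were spread widely, at 22.9, 9.21, 7.23 and 18.6 CPM without and 5.77, 6.52 and 8.50 CPM with E+P. Hoxd4 was scarce, at 0.265 CPM in GFP+ and 0.757 CPM in tdTomato+ stroma (-1.47, SE 0.75, adjusted p = 0.111, edgeR), and its counts cannot be fully separated from those of Hoxd3.

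Hoxa5 and Hoxa6, after Hoxc6 the members with the highest level per length in tdTomato+ stroma (4.84 and 5.52 CPM per kb), were lower in GFP+ stroma by -1.74 (SE 0.27) and -1.66 (SE 0.38). Hoxa5, which patterns the neck and upper thorax and the lung, was at 3.56, 4.57, 2.19 and 2.57 CPM in GFP+ stroma without and 1.54, 3.06 and 2.46 CPM with E+P. In tdTomato+ stroma it was at 3.71, 12.2, 9.62 and 9.32 CPM without and 8.57, 9.29 and 10.8 CPM with E+P. Only untreated replicate 1, at 3.71 CPM, lay within the range of the GFP+ libraries. Hoxa6 was at 2.195, 2.015, 2.80 and 1.38 CPM in GFP+ stroma without and 0.568, 1.425 and 1.378 CPM with E+P. In tdTomato+ stroma it was at 6.27, 4.15, 1.66 and 5.92 CPM without and 6.63, 2.03 and 7.10 CPM with E+P. With 2 tdTomato+ libraries inside the GFP+ range, it was lower in GFP+ stroma in 6 of 7 mice. Its adjusted p of 0.00133 (edgeR) was 0.0178 with limma-voom and 0.0149 without E+P replicate 1.

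Hoxa2 is shown with the sequence before its start because its counts are among the most unequal in the cluster. Over the 250 bases upstream of the RefSeq start (GRCm38.p6, chr6:52164832-52165081, minus strand), capitals mark matches, on either strand, to TGATNNAT, a form of the composite site of PBX and HOX proteins, and to TGACAG, the site of MEIS proteins.
Hoxa2: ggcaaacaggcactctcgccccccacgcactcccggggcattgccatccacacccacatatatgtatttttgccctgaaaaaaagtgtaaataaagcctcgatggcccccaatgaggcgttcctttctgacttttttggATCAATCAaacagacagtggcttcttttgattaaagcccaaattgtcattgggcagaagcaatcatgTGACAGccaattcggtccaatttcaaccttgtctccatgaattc
The 2 motifs do not overlap here. RefSeq promoters (250 bases before to 50 after a start) were at hand for 22 of the 39 members, in 24 promoters. TGATNNAT was found in 4 of the 24 (Hoxa2, Hoxb1, Hoxb8 and Hoxd11) and in 8.85% of all 32851 promoters, and TGACAG in 2 (Hoxa2 and Hoxa3) and in 19.2%. These matches describe letters and are not sites shown to be bound.

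Hoxc8, Hoxc9 and Hoxc10 were the 3 members higher in GFP+ stroma, each in 7 of 7 mice. Hoxc9 and Hoxc10 are known as genes of subcutaneous fat. Hoxc8 changed by 1.09 (SE 0.16, adjusted p = 1.56e-05, edgeR) on the log2 scale, with the values given above, and its lowest GFP+ library exceeded its highest tdTomato+ library. Hoxc9 was at 9.39, 11.1, 9.63 and 14.5 CPM in GFP+ stroma without and 7.87, 10.5 and 9.79 CPM with E+P, and at 6.65, 2.62, 5.44 and 6.51 CPM and 5.97, 2.62 and 3.12 CPM in tdTomato+ stroma. The groups did not overlap, and the log2 fold change was 1.15 (SE 0.24, adjusted p = 0.000699, edgeR).

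Hoxc10 gave 7.95, 7.13, 9.33 and 7.15 CPM in GFP+ stroma without and 7.79, 8.39 and 10.4 CPM with E+P. In tdTomato+ stroma it gave 3.80, 2.89, 4.58 and 4.27 CPM without and 4.64, 5.53 and 6.79 CPM with E+P. The 2 ranges were again separate, with a log2 fold change of 0.82 (SE 0.19, adjusted p = 0.00136, edgeR). Hoxc4, Hoxc5 and Hoxc6, lower in the same cluster, gave log2 fold changes between -0.23 and 0.17 and did not pass.

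The Hoxd paralogues of these genes ran the other way. Hoxd9, which with its paralogues is known from mammary growth in pregnancy, was at 0.227, 0.387, 0 and 0.734 CPM in GFP+ stroma without and at 0, 0 and 0.394 CPM with E+P. In tdTomato+ stroma it was at 2.00, 3.07, 1.46 and 1.85 CPM without and at 2.501, 4.00 and 4.41 CPM with E+P. The groups did not overlap, and the 298 counts in tdTomato+ stroma against 24 in GFP+ stroma gave a ratio of 12.6 (95% exact binomial interval 8.33 to 20.04, counting error only). The fitted log2 fold change was -3.64 (SE 0.69, adjusted p = 0.000236, edgeR), beside 1.15 for Hoxc9.

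Hoxd10 had 82 counts in tdTomato+ and 2 in GFP+ stroma, a ratio of 41.7 (11.2 to 350.4). Its tdTomato+ values were 0, 0.542, 0 and 0.680 CPM without and 0.204, 2.08 and 1.41 CPM with E+P, and its GFP+ values were 0 except for 0.106 CPM in E+P replicate 2. The groups overlapped, since 2 untreated tdTomato+ libraries held no count. Its call (adjusted p = 0.00477, edgeR) was lost with limma-voom (0.021) and on leaving out untreated replicate 2 (0.0147) or any E+P mouse (0.0131 to 0.0249). Hoxd8, the leading Hoxd member with 10.8 ± 4.40 CPM in tdTomato+ and 4.75 ± 0.971 CPM in GFP+ stroma (SD, n = 7), was lower in GFP+ stroma by -1.18 (SE 0.19, adjusted p = 5.57e-05, edgeR).

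The Hoxb cluster differed least between the subsets. Of its 7 tested members 0 passed in the comparison over both treatments by edgeR, and 1 of them, Hoxb4, had an unadjusted p under 0.05, beside 58.3% of all genes. Hoxb4 passed in untreated mice alone (-1.29, SE 0.37, adjusted p = 0.0099, edgeR). The summed level of the cluster was 26.2 ± 7.16 CPM in GFP+ and 31.4 ± 8.48 CPM in tdTomato+ stroma (SD, n = 7).

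Added up by cluster, the same differences appear as a change in makeup, beside a lower mean total in GFP+ stroma. The Hox sum was 141 ± 20.3 CPM in GFP+ and 166.1 ± 16.8 CPM in tdTomato+ stroma (SD, n = 7), with overlapping ranges. Within mice it was lower in GFP+ stroma in all but E+P replicate 2 (162.1 against 158.4 CPM). The difference in total was not tested. The Hoxa sum was 26.8 ± 5.38 CPM in GFP+ and 60.6 ± 9.85 CPM in tdTomato+ stroma, or 18.9% and 36.6% of the Hox sum. The Hoxc sum was 82.8 ± 9.49 CPM in GFP+ and 58.6 ± 7.67 CPM in tdTomato+ stroma, or 58.9% and 35.3%. The Hoxd sum was 5.44 ± 0.903 and 15.5 ± 6.30 CPM. For Hoxa and Hoxd the ranges of the 2 subsets were separate, and for Hoxc the lowest GFP+ library (68.7 CPM) lay just under the highest tdTomato+ library (68.9 CPM).

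**Figure D3:**
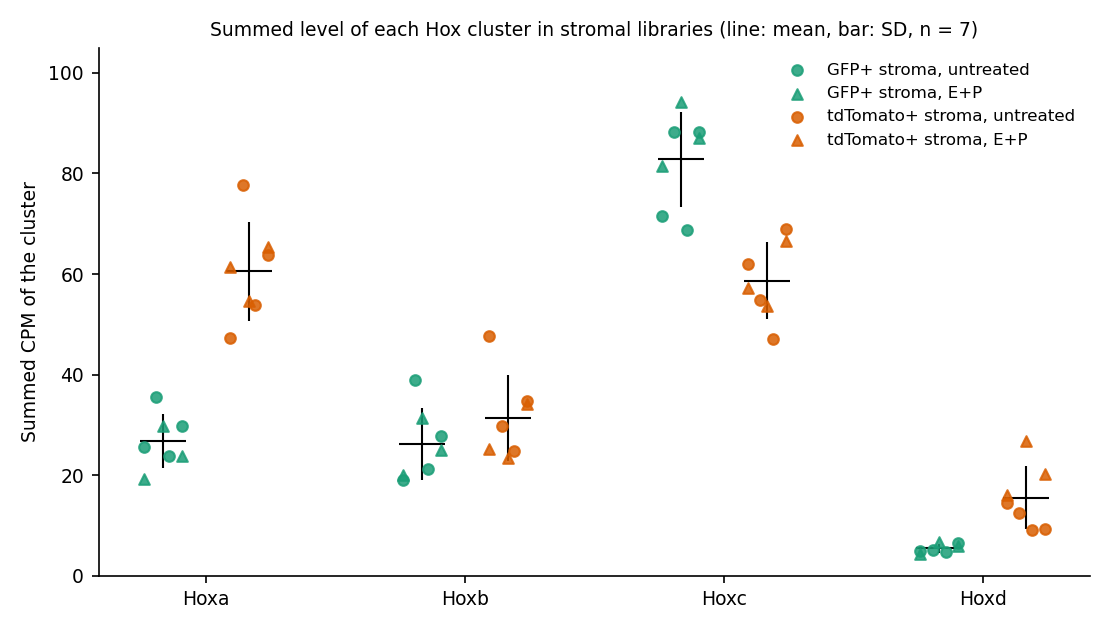
Summed CPM of each Hox cluster in the 14 stromal libraries (points, circles untreated and triangles E+P, with the mean as a line and the SD as a bar, n = 7 per subset). Hoxa and Hoxd sums are higher in every tdTomato+ library than in any GFP+ library, while Hoxb sums overlap widely.

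Markers of other cell types also differed between the 2 subsets, and their part in the result was not tested. The 7 tdTomato+ libraries held 27.9 to 53.97 CPM of Hoxa2 to Hoxa6 together, against 7.63 to 14.02 CPM in GFP+ stroma. In order of rising muscle-fibre markers (2332, 4039, 6020, 10290, 11020, 11760 and 20580 CPM), the tdTomato+ libraries held 50.5, 32.98, 45.02, 27.9, 39.2, 53.97 and 36.96 CPM of these 5 genes. The 2 with the most fibroblast markers, untreated replicates 1 and 3 with 4822 and 6545 CPM, held 27.9 and 32.98 CPM. Luminal markers in untreated tdTomato+ replicates 1 to 4 were 75.6, 259.7, 432.1 and 17.96 CPM. Their Hox sums were 171.5, 174.7, 134.9 and 176.6 CPM.

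Within treatments the same direction was seen in fewer calls. In untreated mice 2 members were higher and 6 lower in GFP+ stroma, beside 28.5% of all genes called, 13.5% higher and 14.9% lower. Those higher were Hoxc8 and Hoxc10, and those lower included Hoxa2 to Hoxa5 and Hoxb4. In a fit of these 2 groups alone 3 members were called, beside 3920 of all genes, and leaving out 1 untreated mouse at a time left 3 to 5. With E+P 1 member was higher, Hoxc8, and 7 were lower, including Hoxa3 to Hoxa6, Hoxd8 and Hoxd9, beside 28% of all genes, 14.2% higher and 13.9% lower. With the mouse as a block 7 were called, without Hoxa6, whose adjusted p went from 0.00564 to 0.0259 (edgeR). Leaving out E+P replicate 1 or 3 left 4 calls with E+P. The interaction of subset and E+P was called for 0 of the 27 members by edgeR, DESeq2 and limma-voom, beside 0.045% of all genes by edgeR. At an unadjusted p under 0.05 it gave 0 members, beside 10.4% of all genes.

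E+P itself was not seen to change Hox genes in stroma. Of the 27 members 0 were called in GFP+ stroma by edgeR, where 0.231% of all genes were called. At an unadjusted p under 0.05 they were 0, beside 8.04% of all genes. In tdTomato+ stroma 0 were called by edgeR, where 0.124% of all genes were called, and 2 had an unadjusted p under 0.05, beside 15.6% of all genes. DESeq2 and limma-voom called 0 in both subsets too. Treatment groups did not overlap for 0 members in GFP+ stroma, beside 13% of all genes, and for 3 in tdTomato+ stroma, beside 10.7%. Among the 19 expressed members of GFP+ stroma the log2 fold changes lay between -0.87 for Hoxa6 and 0.48 for Hoxb7, with a median SE of 0.34. Among the 23 of tdTomato+ stroma they lay between -1.06 for Hoxb4 (adjusted p = 0.198, edgeR) and 0.94 for Hoxd8 (adjusted p = 0.0935, edgeR), with a median SE of 0.39. With 3 against 4 mice, changes well beyond these errors could also be missed. That of Hoxd8 in tdTomato+ stroma did not pass although its SE was 0.26.

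In luminal cells the 3 expressed members could be compared between subsets and treatments. Hoxb2 was lower in GFP+ than in tdTomato+ luminal cells and fell with E+P in tdTomato+ cells, and Hoxb3 and Hoxb4 had differences of the same sign that did not pass in the main test. Per length, the order in all luminal libraries was Hoxb4 with 1.80, Hoxb3 with 1.76 and Hoxb2 with 1.37 CPM per kb. The means lie within the spread of the libraries.

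Hoxb2 stood at 3.93, 4.33, 4.57 and 4.01 CPM in untreated GFP+ luminal cells and at 2.04, 2.10 and 2.497 CPM with E+P. In tdTomato+ luminal cells it stood at 8.83, 7.12, 9.18 and 8.69 CPM without and at 2.32, 4.02 and 3.09 CPM with E+P. Without E+P pellets the 2 subsets did not overlap, and in each subset the untreated libraries were all above the E+P libraries. In tdTomato+ luminal cells the change of Hoxb2 with E+P was -1.39 (SE 0.22, adjusted p = 0.000488, edgeR), the 1 call among 3 members where 14.1% of all genes were called and 6.44% were lower. In GFP+ luminal cells the change was -0.92 (SE 0.22, adjusted p = 0.0131, edgeR), so 0 of 3 members were called by edgeR, beside 5.96% of all genes. By an unadjusted p under 0.05 it was 1 member, beside 29.9% of all genes. DESeq2 called 1, beside 2035 of all genes, where limma-voom called 0. Exact permutation tests of Hoxb2 over mice gave p = 0.0286 in both subsets, two-sided, the smallest that 3 against 4 mice allow. Over all genes, 27.6% in GFP+ and 35.9% in tdTomato+ luminal cells had treatment groups that did not overlap. The difference of the 2 changes was not called for Hoxb2 (0.46, SE 0.30, adjusted p = 0.404, edgeR). It was called for 0 of the 3 members by edgeR, DESeq2 and limma-voom, with 0 at an unadjusted p under 0.05, beside 2.27% and 22% of all genes.

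**Figure D4:**
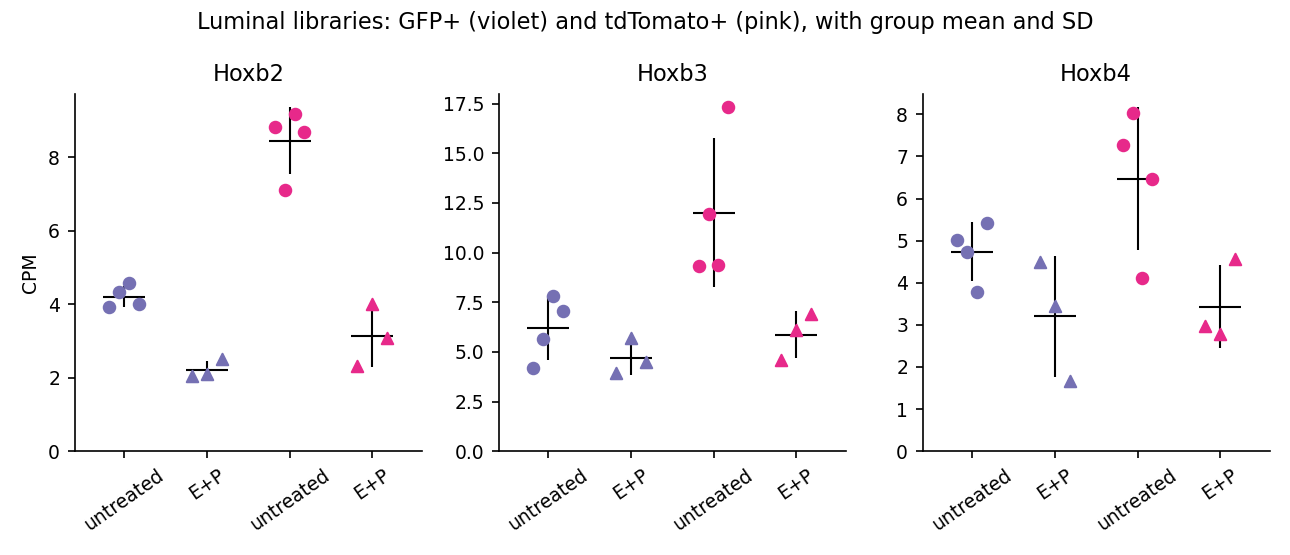
CPM of Hoxb2, Hoxb3 and Hoxb4 in each luminal library (circles untreated, triangles E+P, with group means as lines and SD as bars), GFP+ libraries on the left and tdTomato+ libraries on the right of each panel. The E+P libraries lie under the untreated ones for Hoxb2 in both subsets and for Hoxb3 in tdTomato+ cells.

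Between subsets, Hoxb2 was lower in GFP+ luminal cells by -0.78 (SE 0.15, adjusted p = 0.000746, edgeR) in 7 of 7 mice, and it was the 1 member of 3 called where 34.7% of all genes were called and 19.0% were lower. In untreated mice the difference was -1.02 (SE 0.20, adjusted p = 0.00207, edgeR), 1 call of 3 beside 15.4% of all genes called and 8.42% lower. Without untreated replicate 1 or 4 it was not called in untreated mice. With E+P the difference was -0.55 (SE 0.23, adjusted p = 0.0744, edgeR), with 0 members called beside 25.4% of all genes and 1 at an unadjusted p under 0.05 beside 47.6%. Without E+P replicate 2 the overall difference of Hoxb2 was -0.64 and missed the threshold (adjusted p = 0.0108). With the mouse as a block Hoxb3 was called too, in both the overall comparison (-0.66, adjusted p = 0.00644, edgeR) and in untreated mice (-0.96, adjusted p = 0.00712, edgeR).

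Hoxb3 was at 4.18, 5.64, 7.82 and 7.07 CPM in untreated GFP+ luminal cells and at 3.94, 5.71 and 4.50 CPM with E+P. In tdTomato+ luminal cells it was at 9.34, 11.9, 9.40 and 17.3 CPM without and at 4.57, 6.11 and 6.90 CPM with E+P. The untreated tdTomato+ libraries were thus above all others, and the change with E+P in these cells was -1.0 (SE 0.27, adjusted p = 0.0142, edgeR). Hoxb4 was at 5.004, 4.73, 3.77 and 5.42 CPM in untreated and at 4.49, 3.45 and 1.67 CPM in E+P-treated GFP+ luminal cells. In tdTomato+ luminal cells it was at 7.28, 8.03, 4.12 and 6.48 CPM and at 2.96, 2.78 and 4.57 CPM. These groups overlapped, and the changes of -0.58 (SE 0.33) in GFP+ and -0.89 (SE 0.33) in tdTomato+ cells did not pass.

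A transcript from the opposite strand bears on Hoxb2 and Hoxb3. Its exons, those of Hoxb3os, cover in antisense 25.2% of the read-length windows of Hoxb2 and 50.5% of those of Hoxb3, and which strand setting the deposited counts used is not given in the sources used here, so these reads cannot be told apart. Hoxb3os itself fell with E+P by -0.92 (SE 0.20, adjusted p = 0.00706, edgeR) in GFP+ and by -0.86 (SE 0.19, adjusted p = 0.00502, edgeR) in tdTomato+ luminal cells. It stood at 8.55, 6.64, 7.08 and 7.39 CPM in untreated and 4.08, 4.41 and 3.29 CPM in E+P-treated GFP+ luminal cells. Hoxb4 shares no window with it. Among other tested members, the largest shares of windows covered in antisense were 19.6% for Hoxa3, 17.9% for Hoxa7, 11.9% for Hoxa4 and 9.12% for Hoxd4. The same limit holds for their counts.

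Whether the GFP to tdTomato difference itself differs between stroma and luminal cells was tested for the 27 members. The interaction of subset and lineage was called for 0 members by edgeR, beside 33.2% of all genes. DESeq2 called 2 and limma-voom 3, all of them negative, beside 7661 and 7256 of all genes. At an unadjusted p under 0.05 Hoxb3 alone was found, beside 50.1% of all genes (0.90, SE 0.36, adjusted p = 0.0423, edgeR). Members with hardly any luminal counts could not be called in the edgeR fit whatever their difference. The SE of Hoxa4, for example, was 10930 and that of Hoxa3 was 2467. The absence of calls by edgeR therefore says nothing about those members.

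Proteins of the TALE class (PBX, MEIS and PKNOX) bind DNA together with Hox proteins. Of 9 such genes, 6 were higher and 1 was lower in stroma than in luminal cells, beside 33.0% and 30.5% of all genes. Meis2 was at 56.9 ± 6.61 CPM in GFP+ stroma and 0.144 ± 0.175 CPM in GFP+ luminal cells (SD, n = 7). Its log2 fold change between all stromal and all luminal groups was 9.47 (SE 0.33). That fit includes E+P-treated tdTomato+ luminal cells, where Meis2 had 0 counts, so its size depends on a group at the floor. Between stromal subsets 3 were higher in GFP+ cells, among them Meis1 (1.67, SE 0.16) and Meis3 (1.24, SE 0.17), and 2 were lower, Pknox1 and Pbx3, beside 20.6% and 21.3% of all genes. In luminal cells 2 of 8 were higher and 4 lower in GFP+ cells, where 34.7% of all genes were called and 19.0% were lower. Meis1 was lower there (-2.44, SE 0.21), at 8.31 ± 4.28 against 38.97 ± 6.69 CPM (SD, n = 7). Pknox2 rose with E+P in tdTomato+ luminal cells by 3.85 (SE 0.44, adjusted p = 6.75e-05, edgeR), from 2.01, 6.02, 2.24 and 1.82 CPM to 27.2, 43.4 and 57.2 CPM.

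Other homeobox and patterning genes of body position were measured too. Of 32, 21 were tested in stroma and luminal cells, with 13 higher and 8 lower in stroma, beside 33.0% and 30.5% of all genes. Prrx1, a limb and body-wall mesenchyme factor, was at 478.0 ± 73.0 CPM in GFP+ stroma and 0.550 ± 0.366 CPM in GFP+ luminal cells. Msx2, which acts in the mammary epithelium, was lower in stroma (-6.66, SE 0.49). Between stromal subsets 8 of 21 were higher and 5 lower in GFP+ cells, beside 20.6% and 21.3% of all genes. En1, which marks dermal fibroblasts of the trunk, was higher (2.90, SE 0.34), at 31.5 ± 8.10 against 4.23 ± 2.54 CPM. With E+P 0 of these were called in any population by edgeR. At an unadjusted p under 0.05 they were 6 in GFP+ stroma, 3 in tdTomato+ stroma, 3 in GFP+ luminal and 5 in tdTomato+ luminal cells, beside 8.04%, 15.6%, 29.9% and 39% of all genes.

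Among 24 chromatin regulators that act on Hox clusters, 4 were higher and 14 lower in stroma than in luminal cells, beside 33.0% and 30.5% of all genes. Cbx2 and Cbx8, subunits of Polycomb repressive complexes, were lower (-2.01, SE 0.25 and -1.76, SE 0.17), and the demethylase Kdm6b, which removes the Polycomb mark, was higher (2.00, SE 0.09). Between stromal subsets 2 were higher and 9 lower in GFP+ cells, beside 20.6% and 21.3% of all genes. Ezh2, the Polycomb methyltransferase, was at -0.88 (SE 0.14). With E+P, Cbx2 rose in both luminal subsets (1.23, SE 0.27 in GFP+ and 1.95, SE 0.27 in tdTomato+), and Ezh2 rose in GFP+ luminal cells (0.92, SE 0.11).

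Of 11 noncoding transcripts of the clusters 5 were tested with stromal libraries, and 4 were higher in stroma, Hotairm1, Hoxaas2, Hoxaas3 and Hoxd3os1, beside 33.0% of all genes. In that order, they had 1, 4, 0 and 0 counts in all 14 luminal libraries. They thus passed the low-count filter through their stromal level, which fixed the direction, so this count is no result about the transcripts. Between stromal subsets 3 were lower in GFP+ cells, beside 21.3% of all genes. Hotairm1 gave -3.02 (SE 0.71), Hoxaas2 -2.59 (SE 0.53) and Hoxb3os -1.88 (SE 0.28). Hoxaas2 overlaps Hoxa3 in antisense, so the limit given for strand holds for both.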

How the data were processed

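RNA of sorted cells from individual mice was sequenced as rRNA-depleted total RNA with a stranded kit. The paper's methods report RNA of widely varying quality and a very low input, with fragmentation adapted to poorer RNA and amplification by PCR. These limits bear on members with few counts. The submitters' processing notes name STAR 2.5.2a and GRCm38.p5. The authors deposited raw read counts per gene, without normalization or molecular identifiers. The annotation release and strand setting are not given in the sources used here. Symbols and positions were taken from GENCODE M21, which held 50376 of the 50600 gene IDs. Groups came from sample titles.

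Counts were scaled by TMM, filtered with filterByExpr and fitted by robust quasi-likelihood in edgeR 4.0.16 (R 4.3.3) over all, stromal or luminal libraries. A gene was called at a Benjamini-Hochberg adjusted p under 0.01 over all genes tested. The members and lists were chosen with earlier results of these data known. Members with at least 1 CPM in a group or called were to be named, but some of them, such as Hoxb6, are not described singly. Values of every library were given for the 3 highest per length in each population and the called members with the largest changes. Up to 4 called genes of other lists were named. Samples of 1 mouse are paired by origin, and their deviations from group means correlated at 0.0448 to 0.157 on average. Between mice the values were -0.0605 to -0.0176. These follow from centring on group means and are no separate evidence of pairing. Fits were tested on simulated data. Alternatives were DESeq2 1.42.0, limma 3.58.1 (voom), other scalings, no filter, another threshold, blocks for mouse or replicate number, and leaving out each mouse. Some genes and sequences are not reported here.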

Additional observations from a re-analysis of the deposited data

Results flagged for a closer look

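Of 62 sets of 4 untreated libraries (members with a mean of at least 1 CPM, and cluster sums), 3 held a library far from the other 3 by Dixon's ratio, and chance gives about 1 in 20. Hoxb5 was 3.515 CPM in untreated tdTomato+ stroma replicate 1 and between 0.73 and 1.17 CPM in the others. Hoxc8 was 30.68 CPM in untreated GFP+ stroma replicate 2 and between 19.4 and 20.7 CPM in the others. The sum of all Hox genes was 134.9 CPM in untreated tdTomato+ stroma replicate 3 and between 171.5 and 176.6 CPM in the others.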

How the results depend on the processing

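The 14 comparisons were repeated under the alternatives that applied to them, and the 4 of E+P against untreated mice had no mouse block, since treatment lies between mice. Of the 38 single-member differences called between stroma and luminal cells, between stromal subsets, between luminal subsets and with E+P in tdTomato+ luminal cells, 0 changed sign, and those of Hoxb4, Hoxd9, Hoxa2, Hoxa6, Hoxd10 and Hoxb2 missed the threshold under at least 1 alternative. Some members fell under the low-count filter in part of the 7 fits without a mouse. Hoxc11 and Hoxd4 against luminal cells were tested in 5 and 6 of these, and Hoxd10 between stromal subsets in 6. Between luminal subsets, and in untreated mice alone, 2 members in place of 1 were called with DESeq2, without the low-count filter, at an adjusted p under 0.05 and with the mouse as a replicate block. In that order, 6707, 5351, 7983 and 5899 of all genes were called between luminal subsets. In untreated mice alone they were 3884, 2219, 4974 and 2745. With E+P, 1 member in GFP+ and 2 in tdTomato+ luminal cells were called with scaling by library size only, with DESeq2 and at an adjusted p under 0.05. In that order, 993, 2035 and 2475 of all genes were called in GFP+ and 2896, 3558 and 4444 in tdTomato+ luminal cells. The interaction of subset and lineage was called for 2 members by DESeq2 and 3 by limma-voom, all negative, beside 7661 and 7256 of all genes. At an adjusted p under 0.05 by edgeR it was called for 1, with a positive sign, beside 8570 of all genes. Between stromal subsets of untreated mice 3 members were called in a fit of those groups alone, beside 3920 of all genes. Leaving out 1 mouse at a time gave 3 to 6 calls between stromal subsets in untreated mice, 4 to 8 with E+P, and 0 to 2 between luminal subsets, both overall and in untreated mice. The overall luminal count was 0 without E+P replicate 2 and 2 without untreated replicate 3. The causes were not tested.

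With the mouse as a block, the same 24 members were called between stroma and luminal cells and the same 12 between stromal subsets. Between stromal subsets with E+P it left 7 of 8, without Hoxa6 (adjusted p = 0.0259, edgeR). Replicate numbers across treatments marked no shared origin, with mean correlations of -0.0436 to 0.0129, and a block for them changed no count of members. With scaling by library size only, the Hox sum of untreated GFP+ luminal cells was 18.84 CPM, its Hoxb part 18.45 CPM and the Hoxc sum of E+P-treated GFP+ stroma 76.87 CPM. That scaling moved the median log2 fold change of all genes between stroma and luminal cells from 0.02 to -0.27 and the share of higher calls from 51.9% to 38.8%. Few counts limit members under 1 CPM, and 3 mice with E+P limit what could be detected.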
